A study of Mus musculus with 15 samples.

Results

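Transcript levels of 9 Hedgehog pathway genes were examined in RNA-seq of mouse retinal pigment epithelium (RPE). The genes were *Hhip*, *Ptch1*, *Gli1*, *Gli2*, *Gli3*, *Smo*, *Gas1*, *Boc* and *Cdon*, taken by symbol from the 20910 genes of the table for cultured cells and the 25038 genes of the table for RPE/choroid tissue. All 9 were listed and passed the filter on low counts in both tables. They were selected on measured values, the *Hhip* counts of 1 *Prom1*-KO clone against WT, and the question was whether the pathway targets *Gli1* and *Ptch1* were higher with it. The values of the 9 genes in that clone are therefore given as a description, without p-values. The second clone and the tissue were not used for the choice.

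The cultured cells (mRPE) came from pooled adult C57/BL6J mice and were immortalized with HPV E6/E7. For the KO clones they were made to express Cas9 and then received a guide RNA against *Prom1*. The paper names a scrambled guide for control cells in its check of genomic DNA. It does not say whether the WT libraries came from those cells. The 4 WT libraries were compared with 3 libraries of clone KO22 and 2 libraries of clone KO26. Each KO group is 1 clone, so an effect of *Prom1* loss cannot be told apart from a property of the clone. WT replicate 1, KO22 replicate 1 and KO26 replicate 1 belong to library series 8995, and the other 6 mRPE libraries to series 9262. The 6 tissue libraries are RPE/choroid of WT mice (3) and of mice labelled *Prom1*-KO (3), which came from crossing *Prom1* fl/fl with RPE65-Cre and were given tamoxifen to delete *Prom1* in the RPE. Whether the WT mice carried either allele or had tamoxifen is not given in the sources used here. The paper states an age in weeks and both sexes for the mice of its project. It does not name the RPE/choroid mice there, so their own age is not known.

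Hedgehog ligands bind Patched 1, the product of *Ptch1*, which otherwise holds Smoothened (*Smo*) inactive. Active Smoothened turns the GLI proteins toward transcription of target genes, among them *Gli1*, *Ptch1* and *Hhip* itself. *Hhip* encodes a membrane-anchored protein that binds the ligands and withholds them from Patched, so it acts as a brake. *Gas1*, *Boc* and *Cdon* encode co-receptors. In the eye, Hedgehog signals pattern the optic vesicle, and Indian hedgehog is made by vessels of the choroid.

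*Hhip* lies on the minus strand of chromosome 8 (80692480 to 80784658, GRCm39, GENCODE vM39). Its upstream sequence is shown because it precedes the gene with the greatest change of the 9. RefSeq promoter windows (GRCm38.p6, 250 bases before to 50 after the start site) were held for 7 of the 9 genes and not for *Gli1* and *Boc*. Each of the 7 matched GRCm39 exactly at 1 place on its chromosome. The 200 bases from 250 to 51 before the RefSeq start site of *Hhip* are chr8:80784688-80784887, read on the minus strand, outside the annotated gene:
Hhip upstream: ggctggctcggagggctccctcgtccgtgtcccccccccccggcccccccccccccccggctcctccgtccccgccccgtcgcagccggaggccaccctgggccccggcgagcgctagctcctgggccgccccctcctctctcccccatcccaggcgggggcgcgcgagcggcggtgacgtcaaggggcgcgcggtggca
G or C made up 82% of these bases. The GLI-binding core GACCACCCA was searched on both strands of the whole 300-base windows, and a match would have been in capitals. None of the 7 windows held it exactly or with 1 mismatch. Of 32851 mouse promoter windows of that length, 0.253% held it exactly and 6.74% with at most 1 mismatch. The windows of *Ptch1*, *Gli2*, *Gli3* and *Cdon* lay inside the annotated genes, so the sequence before the annotated starts of these genes was not searched. That of *Ptch1* was at 63713500 to 63713799, while the annotated gene, on the minus strand, begins at 63721412.

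Library totals were 8076188 to 27537863 counts in mRPE and 48154444 to 61766179 in tissue, and levels are given as CPM, the count scaled to a common library total with TMM factors. Replicates varied by more than counting noise, with a chi-square per degree of freedom of 4.8 to 11.8 within a library series of mRPE, 42.1 to 79.6 across the series, and 16.3 to 247 in tissue. Tissue KO replicate 3 stood apart (232 and 247 against the other KO libraries). Its TMM factor was 0.488, against 1.07 to 1.326 in the other tissue libraries, so its counts were scaled up relative to theirs. *Prom1* is not listed in the mRPE table. In the tissue it was at 48.7 to 53.3 CPM in WT and at 49.9, 48.1 and 35.5 CPM in the libraries labelled *Prom1*-KO, so that the label cannot be checked from 2 of the 3. Of 10 RPE markers, 8 are not listed in mRPE (*Rpe65*, *Rlbp1*, *Lrat*, *Rgr*, *Ttr*, *Otx2*, *Krt8* and *Krt18*). The labels do not say whether replicates are separate cultures, so p-values measure the spread between these libraries.

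*Hhip* was high in every KO22 library, but *Gli1* and *Ptch1* were not raised together in any of them. In WT, *Hhip* was at 1.15, 1.58, 1.57 and 1.51 CPM in replicates 1 to 4. In KO22 it was at 86.5, 99.4 and 90.1 CPM. The groups did not overlap, and the log2 fold change was 6.02 ± 0.14 (SE, n = 3 and 4), or 64.8-fold. *Gli1*, the target most often read as a measure of pathway activity, was at 1.43, 0.548, 0.785 and 0.861 CPM in WT and at 1.38, 3.96 and 3.57 CPM in KO22. These values rest on few reads, 8 to 36 in WT and 16, 82 and 46 in KO22. KO22 replicates 2 and 3 were above all WT libraries, and KO22 replicate 1 was within the WT range. The log2 fold change of *Gli1* was 1.64 ± 0.44 (SE), and 1.35 without KO22 replicate 2, when it no longer passed the limits.

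*Ptch1*, the receptor gene that Hedgehog signalling itself induces, showed the opposite distribution over the KO22 libraries. It was at 38.2, 40.9, 45.1 and 46.9 CPM in WT and at 89.2, 37.6 and 37.2 CPM in KO22. Only KO22 replicate 1, the KO22 library of series 8995, was above WT, and the other two were below all WT libraries. The log2 fold change was 0.20 ± 0.25 (SE) with an interval (95%) of -0.37 to 0.76. Without KO22 replicate 1 it was -0.23, and without WT replicate 1, which leaves KO22 replicate 1 with no WT library of its series, -0.26.

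Set against WT of the same library series, KO22 replicate 1 had a ratio of 75.0 for *Hhip*, 0.966 for *Gli1* and 2.34 for *Ptch1*. KO22 replicate 2 had 64.1, 5.41 and 0.850, and KO22 replicate 3 had 58.1, 4.88 and 0.839. The ratio of *Hhip* was thus alike in all 3 libraries, while the target that was higher differed between the series. Series 8995 has 1 WT and 1 KO22 library, so its ratios carry no replicate error. All 9 genes overlap other annotated genes, *Gli1* the coding gene *Arhgap9* on the opposite strand, and the strand setting of the counts is not stated.

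**Figure D1:**
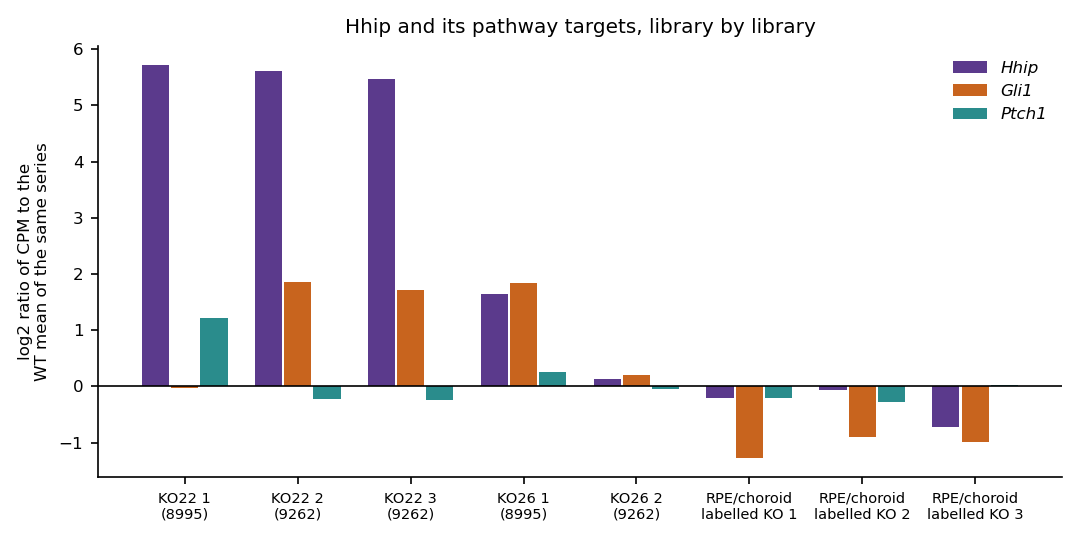
Log2 ratio of CPM (pseudocount 0.5) in each *Prom1*-KO library to the mean of WT libraries of the same library series, for *Hhip*, *Gli1* and *Ptch1*, with 1 bar per gene and library. *Hhip* stands at 5.46 to 5.72 in the 3 KO22 libraries, *Gli1* is at 1.86 and 1.72 in KO22 replicates 2 and 3, at 1.84 in KO26 replicate 1 and near 0 in KO22 replicate 1, *Ptch1* is at 1.21 in KO22 replicate 1 alone, and in the tissue *Gli1* is at -1.27 to -0.90.

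The other GLI genes went in different directions in KO22. *Gli2*, the main activator of the pathway, was at 37.4 to 48.6 CPM in WT and at 9.50, 19.1 and 13.7 CPM in KO22. The groups did not overlap, and the log2 fold change was -1.64 ± 0.16 (SE). *Gli3*, which mostly acts as a repressor, was at 53.3 to 73.0 CPM in WT and at 75.7, 99.1 and 89.8 CPM in KO22. It was above WT in every KO22 library, by a log2 fold change of 0.44 ± 0.14 (SE), which is under the fold limit. *Smo* was at 80.5 to 86.2 CPM in WT and at 26.7, 50.8 and 57.6 CPM in KO22. All KO22 libraries were lower, with a log2 fold change of -0.91 ± 0.18 (SE).

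All 3 co-receptor genes were lower in KO22. *Cdon* was at 100.4, 133.5, 134.1 and 130.9 CPM in WT and at 22.8, 24.9 and 22.9 CPM in KO22, which is -2.38 ± 0.12 (SE) on the log2 scale. *Boc*, a homologue of *Cdon*, was at 7.35, 11.9, 15.7 and 16.4 CPM in WT and at 0.346, 0.627 and 1.94 CPM in KO22, on 4, 13 and 25 reads, with a log2 fold change of -3.74 ± 0.36 (SE). For both, the highest KO22 library was far under the lowest WT library. *Gas1*, which encodes a lipid-anchored surface protein, was at 67.0 to 92.1 CPM in WT and at 61.2, 36.9 and 38.9 CPM in KO22, or -0.85 ± 0.12 (SE) on the log2 scale, under the fold limit.

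Of the 9 genes, 2 (*Hhip* and *Gli1*) were past both limits as higher and 3 (*Gli2*, *Boc* and *Cdon*) as lower in KO22, the limits being 0.05 for the adjusted p and 1.2 for the log2 fold change in either direction. Among all 20455 genes tested in this comparison, 11.4% passed as higher and 13.8% as lower. KO22 and WT did not overlap for 2 of the 9 genes as higher and 5 as lower, beside 24.8% and 25.3% of all genes tested. The median log2 fold change was -0.85 over the 9 genes and -0.03 over all genes. By the adjusted p alone, 3 of the 9 genes were higher and 5 lower, beside 26.9% and 26.1% of all genes. With the choice made on this contrast, nothing is read from these counts.

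**Figure D2:**
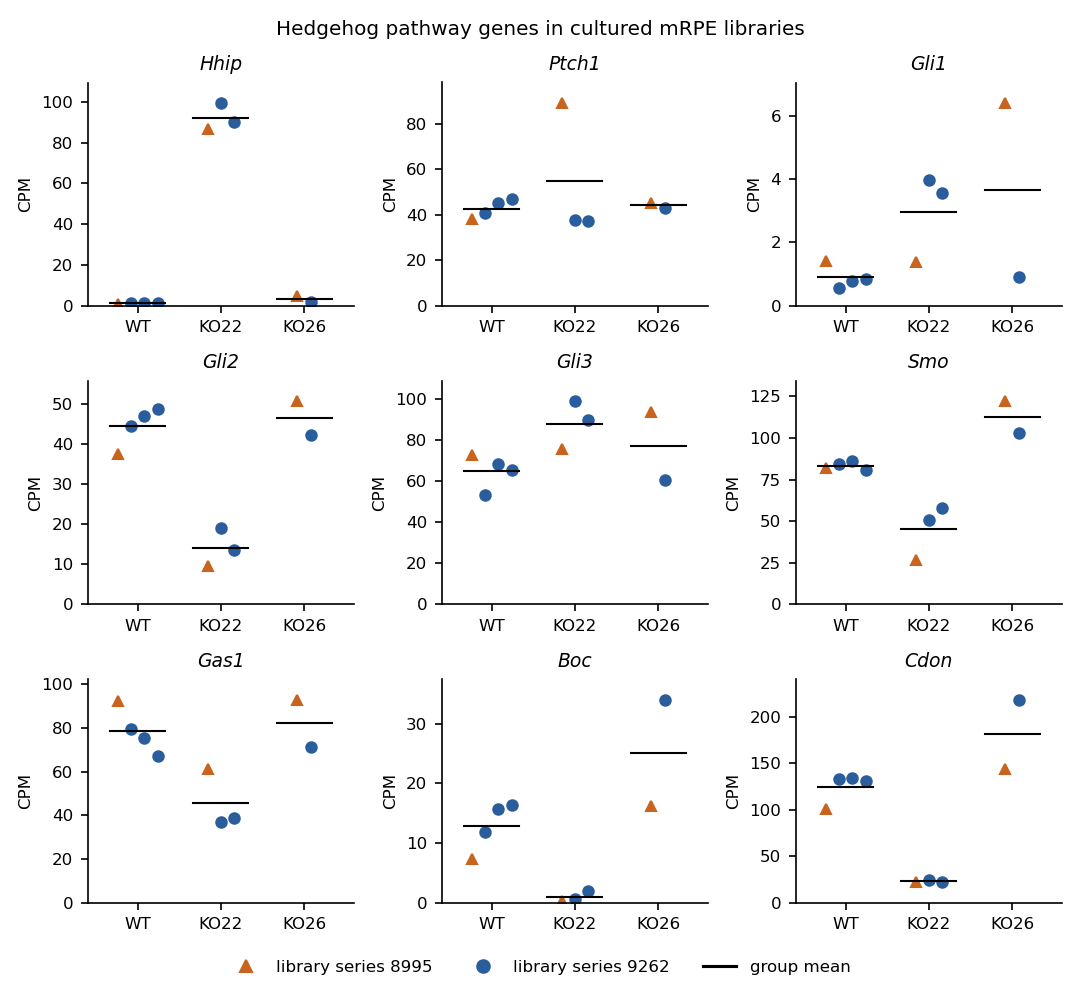
CPM (TMM scale, linear axis from 0) of the 9 genes in each mRPE library, with 1 panel per gene, triangles for library series 8995, circles for series 9262 and a line at the group mean. *Hhip* is at 86.5 to 99.4 CPM in KO22 and at most 4.64 CPM elsewhere, and *Gli2*, *Smo*, *Gas1*, *Boc* and *Cdon* are lower in KO22 than in both other groups.

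Compared per kilobase of annotated exon, *Gas1* had the highest level of the 9 genes in WT mRPE (26.5 ± 3.5 CPM per kb, SD, n = 4), followed by *Cdon* (13.4), *Smo* (9.41), *Gli3* (6.50), *Gli2* (5.51), *Ptch1* (2.90), *Boc* (2.64), *Gli1* (0.181) and *Hhip* (0.135). The neighbours *Gli3* and *Gli2*, *Ptch1* and *Boc*, and *Gli1* and *Hhip* overlapped in their ranges over libraries. In KO22 *Hhip*, at 8.58 ± 0.62 CPM per kb (SD, n = 3), stood beside *Gli3* (8.81 ± 1.18) and under *Gas1* (15.4 ± 4.6), while *Boc* was last (0.200). In KO26, *Gas1* (27.8) and *Cdon* (19.5) were again first and *Gli1* (0.731) and *Hhip* (0.297) last. In WT tissue the order was *Gas1* (3.71 ± 1.18, n = 3), *Smo* (3.10), *Cdon* (2.36), *Boc* (1.63), *Ptch1* (1.46), *Gli2* (1.27), *Gli1* (0.793), *Gli3* (0.727) and *Hhip* (0.314). There the neighbours overlapped in range except *Cdon* and *Boc*, *Gli2* and *Gli1*, and *Gli3* and *Hhip*. In the tissue labelled *Prom1*-KO the first was again *Gas1* (5.19) and the last *Hhip* (0.246).

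The second clone gave a different picture, and its 2 replicates lay apart. Both of its libraries were treated as outliers in the study and left out of its comparison. In KO26, *Hhip* was at 4.64 CPM in replicate 1 and 1.73 CPM in replicate 2, on 100 and 15 reads. Both were above all 4 WT libraries, the second by little. The log2 fold change was 1.24 ± 0.34 (SE), with an adjusted p of 0.0741 in edgeR's quasi-likelihood test over the 9 mRPE libraries. *Gli1* was at 6.40 and 0.925 CPM in KO26, on 138 and 8 reads. Replicate 1 was thus above every other mRPE library and replicate 2 within the WT range. The log2 fold change was 1.80 ± 0.67 (SE, edgeR adjusted p = 0.171). *Ptch1*, at 45.4 and 42.9 CPM, was within the WT range in both KO26 libraries, with a log2 fold change of -0.07 ± 0.28 (interval -0.70 to 0.56, edgeR adjusted p = 0.911). Relative to WT of its series, KO26 replicate 1 had a ratio of 4.03 for *Hhip* and 4.48 for *Gli1*, and replicate 2 had 1.12 and 1.26. Each rests on a single library.

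Among the other genes in KO26, *Cdon* (144.2 and 218.3 CPM) was above WT in both libraries. Its log2 fold change was 0.61 ± 0.14 (SE, edgeR adjusted p = 0.0391), past the limit on p but under that on the fold. *Boc*, at 16.2 and 34.0 CPM, was within the WT range in replicate 1 and above it in replicate 2, and its log2 difference from WT was 1.203 ± 0.29 (edgeR adjusted p = 0.0533). *Smo*, at 122.0 and 102.9 CPM, was above all WT libraries, and differed by 0.52 ± 0.23 on the log2 scale (edgeR adjusted p = 0.238). The co-receptors and *Smo* that were lower in KO22 were thus not lower in KO26. *Gli2* (0.17), *Gli3* (0.20) and *Gas1* (-0.06) had log2 fold changes with adjusted p-values of 0.598 to 0.856.

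None of the 9 genes passed both limits in KO26, beside 1.21% of 20737 genes tested as higher and 0.719% as lower. With an unadjusted p under 0.05 in edgeR there were 5 higher and 0 lower of the 9, beside 11.1% and 9.02% of all genes. DESeq2 also called 0 of the 9, beside 1.74% of all genes as higher and 1.3% as lower. By edgeR's adjusted p alone, *Cdon* was higher and none of the 9 lower, beside 2.36% and 1.13% of all genes. The spread in this fit is shared by all 9 libraries, and single libraries decided the call. Without KO22 replicate 1, *Hhip* (1.22, adjusted p = 0.012) and *Gli1* (1.54, adjusted p = 0.0116) passed both limits, and without KO26 replicate 2 they did at 1.86 and 2.82. Without KO26 replicate 1 the log2 fold change was 0.22 for *Hhip* and -0.09 for *Gli1*. Both clones were compared with the same 4 WT libraries.

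Between the clones directly, with the KO22 values on which the genes were selected, KO22 had more *Hhip* than KO26 by a log2 difference of 4.77, and less *Gli2* (-1.81), *Smo* (-1.41), *Boc* (-4.94) and *Cdon* (-2.98). These 5 genes were past both limits, 1 higher and 4 lower, beside 7.56% and 10.7% of 20737 genes, and by the adjusted p alone 1 was higher and 5 lower, beside 16.3% and 18.1%. Nothing is read from these counts. *Smo* no longer did without KO22 replicate 1 (-1.01) or without KO26 replicate 1 (-1.09). *Gas1* was lower by 0.79 on the log2 scale, and *Ptch1* (0.30) and *Gli3* (0.24) overlapped between the clones. *Gli1* had a log2 difference of 0, with 1 KO26 library below and the other above all KO22 libraries.

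**Figure D3:**
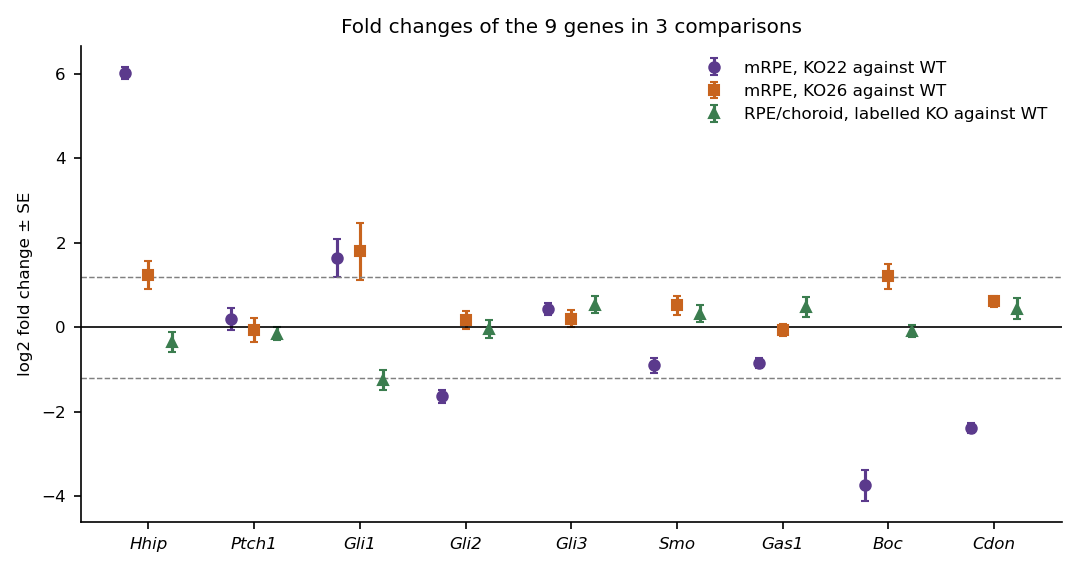
Log2 fold change with SE bars of the 9 genes against WT in KO22 (circles), KO26 (squares) and RPE/choroid labelled *Prom1*-KO (triangles), with dashed lines at the fold limit of 1.2 in each direction. *Hhip* is at 6.02 only in KO22, *Gli1* is at 1.64 and 1.80 in the clones and at -1.25 in the tissue, and *Boc* and *Cdon* have opposite signs in the 2 clones.

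Genes of chromosome 8, where *Hhip* lies, were higher as a whole in KO22. The median log2 fold change in KO22 over the 1089 tested genes of chromosome 8 was 0.60, the highest of the chromosomes, so that *Hhip* was 5.42 above it. In KO26 that median was 0.02. *Gli1* lies on chromosome 10, which had the lowest median in KO22 (-0.54). Relative to its chromosome *Gli1* was at 2.18. For *Ptch1*, on chromosome 13 (median 0.02), the difference was 0.18. Against their chromosomes, *Boc* (-3.94), *Cdon* (-2.65) and *Gli2* (-1.45) stayed lower, and *Smo* was at -0.46 where chromosome 6 had a median of -0.45.

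Within 1 Mb of *Hhip*, 17 other genes were tested, and their median in KO22 was 0.54 on the log2 scale, below that of the whole chromosome. Of them 5 passed both limits, each as higher, beside 11.4% of all genes. They were *Otud4* (1.76), *Abce1* (1.72), *Gm27006* (1.37), *Smarca5* (1.49) and *Gm54713*. The last is a short non-coding gene inside *Hhip* on the opposite strand, at 0 to 0.196 CPM in WT and 2.77, 4.29 and 4.03 CPM in KO22. The nearest tested genes on the side of lower coordinates, *Anapc10* (0.59), *Gm45435* (0.14) and *Gm45434* (-0.06), and the next on the other side, *Frem3* (0.58), did not pass. In KO26 the 17 genes had a median of -0.29 and a highest value of 0.12. *Inpp4b*, a phosphoinositide phosphatase gene 1.38 Mb from *Hhip*, was named after its values were seen, so its KO22 value is given without a p-value. Its log2 fold change was 7.13 ± 0.31 in KO22 and 2.25 ± 0.70 in KO26 (edgeR adjusted p = 0.11 in KO26). Further out, *Rnf150* (-3.72), *Gm18212* (-2.87) and *Gm45449* (-3.55), also named after their values were seen, were lower in KO22.

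**Figure D4:**
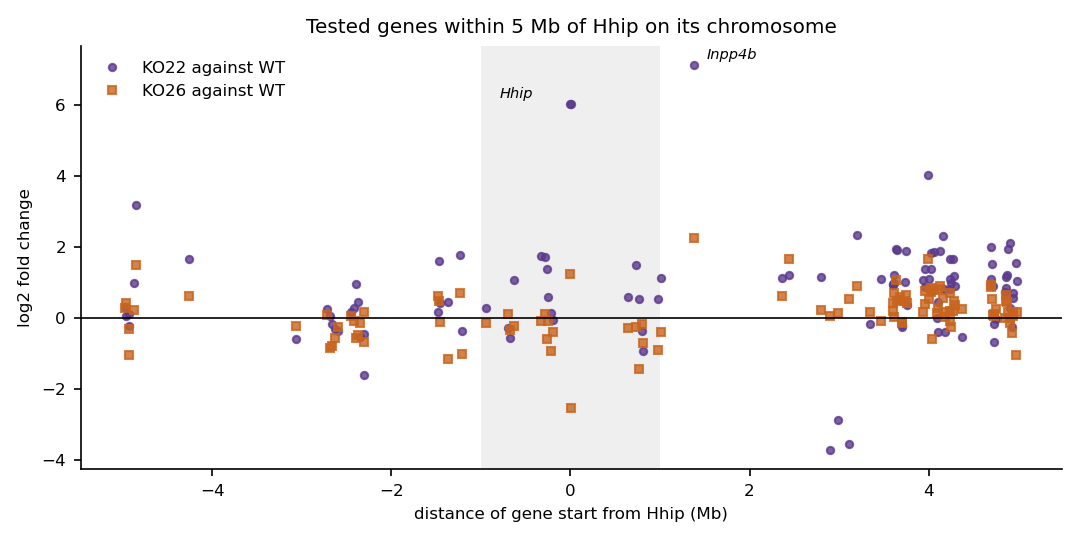
Log2 fold change against WT of the tested genes starting within 5 Mb of *Hhip*, by distance of their start from that of *Hhip* in Mb, for KO22 (circles) and KO26 (squares), with the window of 1 Mb shaded. *Hhip* and the overlapping *Gm54713* (6.03) share the point near 6 and *Inpp4b* is at 7.13, while the median of the 109 other genes is 0.81 in KO22 and 0.15 in KO26.

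Over the 9 mRPE libraries, the genes with levels most like those of *Hhip* (Pearson r of log2 CPM, among 16371 genes) were *Cdc25a* (0.998), *Gsr* (0.996), *Agpat5* (0.995), *Sec24b* (0.994) and *Ogfod1* (0.994). *Gsr*, for instance, was at 10.7 to 12.2 CPM in WT, 71.0 to 72.4 in KO22 and 10.99 to 19.2 in KO26. These points are mainly the contrast of 3 KO22 libraries with 6 others. *Gsr*, *Agpat5* and *Ogfod1* are on chromosome 8 as well. None of the 5 is a Hedgehog pathway gene of the lists.

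The rest of the pathway was described with 49 further genes, of which 44 are listed in mRPE. The ligand genes *Shh*, *Ihh* and *Dhh* are not listed there. In KO22, 2 of 42 tested genes passed as higher and 13 as lower, beside the 11.4% and 13.8% of all genes, and their median log2 fold change was -0.52. Of 5 tested genes of ligand production and release, 2 fell. *Scube1*, a secreted protein that helps to release the ligand, was at 5.38 to 8.35 CPM in WT and at 0, 0.048 and 0.078 CPM in KO22, on 0, 1 and 1 reads. *Scube3* fell by 1.73 ± 0.24 on the log2 scale. Of 6 ligand-binding and receptor-associated genes, 3 fell. The glypican gene *Gpc3* was at 4.29 to 7.85 CPM in WT and at 0.086, 0.145 and 0.155 CPM in KO22. *Gpc4* fell by 2.46 ± 0.17, and *Lrp2*, which encodes the endocytic receptor megalin, by 2.11 ± 0.23. None of the 6 passed as higher. The lists were chosen with earlier results of these data known. The values of their genes in KO22 are therefore a description too, without p-values.

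Of 16 intracellular regulators, 2 fell in KO22. *Stk36*, a kinase of the pathway, fell by 1.29 ± 0.20 on the log2 scale, and *Btrc*, a ubiquitin ligase subunit that acts on GLI proteins, by 1.35 ± 0.11. *Sufu*, the inhibitor that retains GLI proteins, was at 29.4 to 39.7 CPM in WT and at 17.7, 28.0 and 26.1 CPM in KO22, lower in each, with a log2 fold change of -0.55 ± 0.12 under the fold limit. Of 15 tested further targets, 2 rose and 6 fell. The cell cycle genes *Cdk6* (1.67 ± 0.16) and *Foxm1* (1.67 ± 0.20) rose. *Osr1* (-2.01 ± 0.38), *Bcl2* (-1.32 ± 0.34), *Hsd11b2* (-1.39 ± 0.43) and *Mycn* (-1.76 ± 0.55), and the genes *Osr2* and *Igf2*, fell. *Osr2* was at 14.2 to 20.8 CPM in WT and at 0, 0.290 and 0.543 CPM in KO22. *Igf2* was at 0.477 to 1.65 CPM in WT and at 0, 0.048 and 0 CPM in KO22. *Mycn* and *Hsd11b2* were at most at 1.18 CPM in the WT libraries. Without WT replicate 1 or KO22 replicate 1, 5 pathway genes passed as higher instead of 2.

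In KO26, 2 of 43 tested pathway genes passed as higher, *Foxm1* (1.57 ± 0.25, edgeR adjusted p = 0.0125) and *Scube1* (1.57 ± 0.23, adjusted p = 0.00993), and 0 as lower, beside the 1.21% and 0.719% of all genes. At an unadjusted p under 0.05 in edgeR 11 were higher and 0 lower, beside 11.1% and 9.02% of all genes. Under the alternatives that left out no library, DESeq2 among them, 2 to 3 were called higher and 0 lower. In DESeq2 the shares of all genes were 1.74% and 1.3%. *Scube1* was at 19.5 and 22.4 CPM in KO26, above WT, where KO22 had at most 1 read. *Foxm1* was at 75.6 and 54.9 CPM in KO26 and at 45.4, 89.9 and 81.5 CPM in KO22, above WT (19.1 to 25.2) in all. Without KO26 replicate 1, without KO26 replicate 2 or without WT replicate 3, 1 pathway gene passed in KO26. The median of the 43 genes was 0.24, beside 0.03 over all genes. Between the clones, 13 of 43 pathway genes were lower in KO22 and 0 higher, beside the 10.7% and 7.56% of all genes. At an unadjusted p under 0.05 in edgeR 22 were lower and 2 higher, beside 22.9% and 21.2% of all genes, and DESeq2 called 13 lower and 0 higher, beside 10.6% and 7.6%. *Foxf1* (-1.57) and *Cebpa* (-1.32) were past the limits there but in neither comparison with WT.

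Markers of other cell types moved with the clones. The 7 listed of 8 fibroblast and pericyte markers summed to 11280 to 14230 CPM in WT, 4241 to 6011 in KO22 and 15510 to 18370 in KO26. *Col1a1*, *Col1a2* and *Pdgfra* carried the difference from KO22, while *Cspg4* was higher in KO22 (18.5 to 25.4 CPM) than in WT (5.83 to 6.89) and *Dcn* overlapped (946.0 to 1496 and 413.7 to 1047). The higher sum in KO26 came mainly from *Col1a1* (6138 and 7595 CPM) and *Col1a2* (7896 and 8718). *Cspg4* and *Rgs5* were also above WT there, and *Pdgfrb* was in KO26 replicate 1 alone. *Pdgfra* was lower in KO26 (588.1 and 971.0 CPM) than in WT (1141 to 1571), and *Dcn* was within the WT range. The 5 listed of 7 endothelial markers summed to 153.1 to 236.2 CPM in WT, 3.49 to 5.40 in KO22 and 56.7 to 74.1 in KO26, with *Cdh5* and *Emcn* not listed. Nearly all of that sum was *Kdr* (151.1 to 234.5 CPM in WT and 0.346 to 3.71 in KO22), and the other 4 genes were under 3 CPM in every library, *Plvap* being higher in KO22 replicate 1 (2.50 CPM) than in WT (0 to 0.755). The 2 listed RPE markers, *Best1* and *Mitf*, summed to 6.20 to 10.5 CPM in WT, 13.7 to 37.5 in KO22 and 3.39 to 6.48 in KO26. *Mitf* was at 3.02 to 6.77 CPM in WT, 10.4 to 20.1 in KO22 and 1.62 to 2.08 in KO26. *Best1* was within the WT range (3.15 to 4.235 CPM) in KO22 replicates 2 and 3 and at 17.4 CPM in KO22 replicate 1. In KO26 *Best1* was at 1.76 CPM in replicate 1 and 4.395 CPM in replicate 2. Lists of photoreceptor, macrophage, Schwann cell, melanocyte and muscle markers each summed to at most 17.2 CPM in mRPE. The part of these markers in the levels of the 9 genes was not tested.

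In RPE/choroid, the 9 genes were measured in deeper libraries, and *Gli1* was the one whose groups lay furthest apart. It was at 3.48, 5.18 and 3.28 CPM in WT, on 225 to 306 reads, and at 1.36, 1.89 and 1.76 CPM in the libraries labelled *Prom1*-KO, on 53 to 116 reads. The groups did not overlap, and the log2 fold change was -1.25 ± 0.24 (SE, n = 3 and 3). It did not pass the adjusted limit in edgeR (adjusted p = 0.166) and did in DESeq2 (adjusted p = 0.00247). Leaving out any library gave -1.37 to -1.02, and -1.30 without KO replicate 3. The sign was the opposite of that of the fitted value in each mRPE clone, where it did not hold in every library. KO22 replicate 1 had a *Gli1* ratio of 0.966 to WT of its series. In KO26 the log2 fold change was -0.09 without KO26 replicate 1. The mRPE and tissue values were not tested against each other.

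*Hhip* was not higher in the tissue. It was at 3.69, 3.59 and 2.84 CPM in WT and at 2.87, 3.18 and 1.86 CPM in the labelled *Prom1*-KO. The groups overlapped, with a log2 fold change of -0.35 ± 0.24 and an interval of -0.90 to 0.21 (edgeR adjusted p = 0.773). For the tissue as a whole, a rise of the size in KO22 lay far outside it. The tissue holds other cells besides RPE, so the interval does not bound a change within RPE cells. *Ptch1* was at 18.6, 21.9 and 24.0 CPM in WT and at 18.5, 17.6 and 22.0 CPM in the labelled *Prom1*-KO, with a log2 fold change of -0.15 ± 0.15 (interval -0.50 to 0.20, edgeR adjusted p = 0.851). Thus the lower *Gli1* came without a difference in the other 2 targets that was detectable in 3 against 3 libraries.

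*Gas1* was higher without overlap, at 14.3, 7.34 and 11.3 CPM in WT and 15.1, 15.3 and 15.7 CPM in the labelled *Prom1*-KO, or 0.48 ± 0.23 on the log2 scale (edgeR adjusted p = 0.661). *Gli3* was at 9.10, 6.39 and 6.34 CPM in WT and at 11.7, 11.02 and 8.92 CPM in the labelled *Prom1*-KO, or 0.54 ± 0.19 on the log2 scale (edgeR adjusted p = 0.506). The lowest labelled *Prom1*-KO library for *Gli3* was within the WT range. *Smo* (0.32), *Cdon* (0.44), *Gli2* (-0.05) and *Boc* (-0.09) overlapped between the groups, with adjusted p-values of 0.711 to 0.975. Without KO replicate 3, *Smo* was at 0.05, *Gli2* at 0.12 and *Hhip* at -0.17.

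None of the 9 genes passed both limits in the tissue in edgeR. At an unadjusted p under 0.05 there were 1 higher (*Gli3*) and 1 lower (*Gli1*), beside 3.98% and 4.31% of all genes. DESeq2 called 1 lower (*Gli1*), beside 0.337% of all genes as higher and 0.758% as lower. In edgeR, over all 24926 genes tested, 0% passed as higher and 0.189% as lower. The groups did not overlap for 1 of the 9 genes in each direction, beside 6.7% as higher and 7.89% as lower over all genes. The median log2 fold change was -0.05 over the 9 genes and 0.01 over all.

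**Figure D5:**
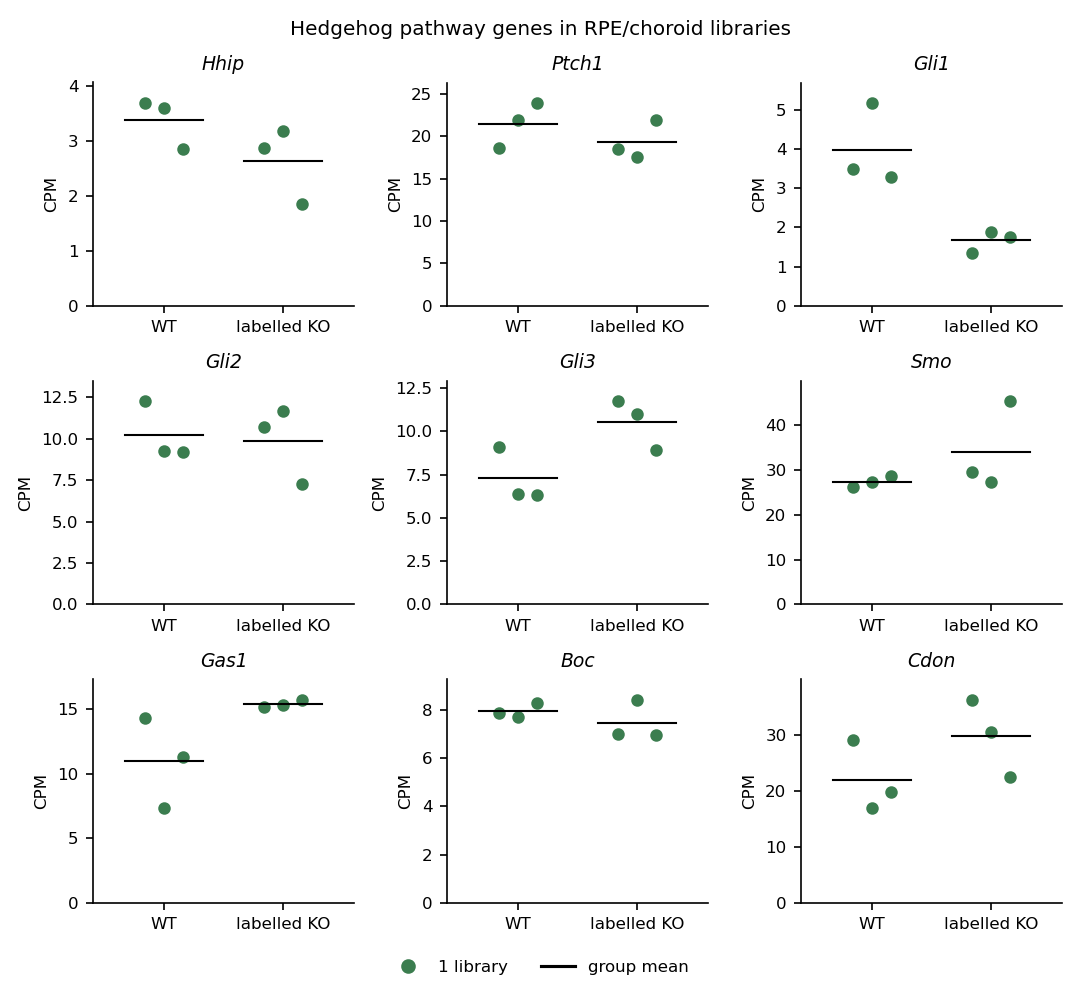
CPM (TMM scale, linear axis from 0) of the 9 genes in each RPE/choroid library, with 1 panel per gene, 1 point per library and a line at the group mean. *Gli1* is at 3.28 to 5.18 CPM in WT and 1.36 to 1.89 CPM in the labelled *Prom1*-KO with no overlap, and *Hhip* and *Ptch1* overlap between the groups.

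The ligand genes were barely detected in the tissue. *Ihh* was at 0.118 to 0.204 CPM in WT and 0.065 to 0.194 CPM in the labelled *Prom1*-KO, on 3 to 14 reads, and *Dhh* at 0.533 to 1.66 and 0.763 to 1.34 CPM. *Shh* is not listed. *Sufu* overlapped, at 5.40 to 6.38 and 4.77 to 6.56 CPM. Of 47 tested pathway genes, 0 passed in either direction in edgeR, beside 0% of all genes as higher and 0.189% as lower. DESeq2 also called 0 of them, beside 0.337% and 0.758%. At an unadjusted p under 0.05 in edgeR 1 was higher and 5 lower, beside 3.98% and 4.31% of all genes. The median log2 fold change of the 47 pathway genes was -0.08.

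Some markers of the tissue's cell types moved with the groups. The 10 RPE markers summed to 1477 to 2379 CPM in WT and 172.2 to 288.7 CPM in the labelled *Prom1*-KO. Of them, *Rpe65*, *Rlbp1*, *Lrat*, *Rgr*, *Ttr* and *Mitf* were lower there without overlap, while *Best1*, *Otx2*, *Krt8* and *Krt18* overlapped. The 7 endothelial markers summed to 98.8 to 199.9 and 66.6 to 88.4 CPM. *Kdr*, *Plvap* and *Emcn* were lower without overlap, and *Pecam1*, *Cdh5*, *Tek* and *Vwf* overlapped. The sums of the 6 macrophage markers (246.8 to 310.7 and 198.1 to 275.0 CPM) and the 8 fibroblast and pericyte markers (1090 to 2108 and 980.4 to 2027 CPM) overlapped, as did that of melanocyte markers (852.0 to 1267 and 1137 to 1246 CPM). Single macrophage markers went both ways without overlap. *Ptprc* was higher in the labelled *Prom1*-KO (18.3 to 24.0 CPM, WT 11.35 to 17.7), and *Csf1r* and *Cd68* were lower. *Pdgfrb* and *Cspg4*, of the fibroblast and pericyte list, were also lower without overlap. Photoreceptor markers varied within groups, from 37.9 to 1060 CPM in WT and 19.0 to 510.9 CPM in the labelled *Prom1*-KO, and so did muscle markers (258.4 to 743.7 and 43.4 to 688.2 CPM) and Schwann cell markers (51.7 to 64.9 and 42.5 to 244.9 CPM). The part of these markers in the level of *Gli1* was not tested. In bulk tissue, fewer cells of a type and less RNA per cell cannot be told apart.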

How the data were processed

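RNA-seq of 9 mRPE and 6 RPE/choroid libraries was analysed from raw counts per gene. The deposited counts were made by the authors with Trim Galore 0.6.7 and STAR on mm39, per the submitters' processing notes, and genes with low counts were left out of the mRPE table. The deposited normalized values were not used. The members and lists were chosen with earlier results of these data known. All genes were fitted together with edgeR 4.0.16 under R 4.3.3, by its quasi-likelihood test (TMM scaling, at least 5 counts in at least 3 libraries, library series as a term for mRPE, Benjamini-Hochberg adjustment). KO22 with WT used 7 libraries, KO26 with WT and KO22 with KO26 used 9, and the tissue used 6. SE is the absolute log2 fold change over the root of F. DESeq2 1.42.0, scaling, filter, batch term, chromosome centring and leaving out libraries were alternatives. Named genes were the 9 genes, listed pathway genes past both limits, fixed ligands and receptors, neighbours of *Hhip* and the 5 genes most like it. The script was tested on simulated data.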

Additional observations from a re-analysis of the deposited data

Results flagged for a closer look

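In WT mRPE, replicate 1 stood below the other 3 libraries, by a gap large against their spread, for *Hhip* (1.15 CPM, others 1.51 to 1.58) and for *Cdon* (100.4 CPM, others 130.9 to 134.1). The *Hhip* values rest on 16 to 29 reads per library. Replicate 1 is the only WT library of series 8995. Chance alone sets apart about 1 in 20 such groups.

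For 6 genes the clones lay apart in the 9-library fit, given here as a description because the genes were selected on the KO22 values and the difference for *Hhip* was fixed by that. The log2 difference, KO22 minus KO26, was 4.77 for *Hhip*, -1.81 for *Gli2*, -1.41 for *Smo*, -0.79 for *Gas1*, -4.94 for *Boc* and -2.98 for *Cdon*.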

How the results depend on the processing

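In KO22 with WT, *Hhip* was 5.72 within series 8995, 5.54 within series 9262 and 5.42 against its chromosome (log2), and *Ptch1* was 1.21 and *Gli1* -0.037 within series 8995, so *Gli1* changed sign there. With a library left out, *Gli1* was 1.35 to 2.38, 1 to 2 of the 9 genes were called higher, and 2 to 5 pathway genes. In KO26 with WT, *Ptch1* was 0.247 within series 8995, and *Hhip* was 0.123 and *Gli1* 0.211 within series 9262. With a library left out *Hhip* was 0.223 to 1.86 and *Gli1* -0.085 to 2.82, 0 to 2 of the 9 genes were called higher, and 1 to 3 pathway genes. Where 1 KO26 library was left, it was assumed to vary like the other groups. In KO22 with KO26, *Hhip* was 4.08, *Ptch1* 0.966 and *Gli1* -1.88 within series 8995, *Hhip* was 5.41 and *Gli1* 1.58 within series 9262, and 0 to 1 pathway genes were higher with a library left out. In the tissue, DESeq2 gave *Gli1* -1.25 (adjusted p = 0.00247) and called 1 of the 9 genes lower.

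By adjusted p alone, which admits smaller changes, 4 of 42 pathway genes were higher and 24 lower and 5 of the 9 genes were lower in KO22 with WT, beside 26.9% of all genes as higher and 26.1% as lower. By the same limit 1 of the 9 genes was higher in KO26 with WT (2.36% of all genes), and 1 of 43 pathway genes was higher and 21 lower in KO22 with KO26 (16.3% and 18.1%). The cause of the other differences was not tested. With a library left out, 387 values kept their direction and side of the limits or stayed close to the value reported, 9 moved, 4 newly passed the limits and 3 no longer did. Under the other alternatives the counts were 297, 37, 6 and 0, and 1 value reversed. Depth limits *Gli1* in mRPE, with as few as 8 reads in a library.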
